A study of Homo sapiens with 6 samples.

Results

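The HOX genes of the HOXA, HOXB, HOXC and HOXD clusters were followed in 3 human cell lines from thyroid cancers, over 6 RNA sequencing libraries. The members were 38 listed protein-coding HOX genes, found by symbol among the 58884 genes of the deposited table, with 10 in the HOXA cluster, 10 in HOXB, 9 in HOXC and 9 in HOXD. FTC-133, a follicular thyroid carcinoma line, and BHT-101, an anaplastic thyroid carcinoma line, were each transfected with siRNA against CRABP2 (siCRABP2) or with a control siRNA (siControl). 8505C, a second anaplastic line, was transfected with a CRABP2 expression vector or with an empty vector. Each of these groups was 1 library, so each line had 2 libraries that differed in treatment. CRABP2 binds retinoic acid in the cytoplasm and carries it to the nuclear retinoic acid receptors. The comparisons ask what less CRABP2 in the first 2 lines, and more CRABP2 in 8505C, went with. The labels do not give the siRNA sequences, the time after transfection or whether the libraries came from separate cultures.

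HOX genes encode homeodomain transcription factors that set the identity of body segments in the embryo. They lie in clusters on 4 chromosomes, and genes of the same number in different clusters (paralogs) descend from a common ancestor. Low-numbered genes are used in the head and neck, high-numbered genes toward the tail, and retinoic acid switches on the low-numbered end first. Adult cells, and the lines grown from tumours, often keep a stable set of active HOX genes, with silent ones held under Polycomb repression. In the mouse, Hoxa3 and Hoxa5 take part in the formation of the thyroid.

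Levels are FPKM, reads scaled for exon length and library depth, so that genes can be compared per length. Read totals recovered from the table ran from 22084110 to 27958622 per library. CRABP2 itself was at 0.170 FPKM with siCRABP2 and 8.94 FPKM with siControl in FTC-133. In BHT-101 it was at 11.4 FPKM with siCRABP2 and 27.3 FPKM with siControl. The CRABP2 vector library of 8505C held 38 FPKM and the empty vector library 0.607 FPKM, so the targeted gene ran as labelled in each line. The thyroid hormone precursor gene TG was near 0 in every library, at most 0.0472 FPKM. The thyroid factor PAX8 was at 13 and 12.3 FPKM in the siCRABP2 and siControl libraries of FTC-133 and at most 0.273 FPKM in the other lines. The thyroid factor NKX2-1 was at 12.4 and 22.6 FPKM in FTC-133 and at 13.1 and 16.7 FPKM in 8505C, in the order of treated and control library, and was listed at 0 in BHT-101. DIO1, on the same list of 9 thyroid markers, was higher in BHT-101. Its log2(FPKM + 1) difference was -2.09 for FTC-133 minus BHT-101 and 2.12 for BHT-101 minus 8505C. The 9 markers summed to 3.50 and 4.30 FPKM in BHT-101 with siCRABP2 and siControl. The 5 haematopoietic markers summed to at most 0.169 FPKM in any library.

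Promoter windows were taken from RefSeq on GRCh38.p14, 250 bases before to 50 after a gene's start, and 20 of the 38 members had at least 1 window, 27 windows in all. HOXA3 and HOXA10 had more than 1. No window was available for HOXB2 to HOXB9, HOXA5, HOXC8, HOXC9 or HOXC13, so the shares below leave out these genes. The windows printed are those of HOXC4, HOXA10 and HOXA2. HOXC4 and HOXA10 were expressed in FTC-133 alone and HOXA2 in BHT-101 alone, taking 1 FPKM in both libraries of a line as expressed. HOXC5 has the same window as HOXC4, counted for each gene, and both were lower with siCRABP2 in FTC-133. Capitals mark matches to the CCAAT box (CCAAT, or ATTGG on the other strand), the TATA box (TATAAA, or TTTATA) and the HOX-PBX site (TGATTNAT, or ATNAATCA); no matches overlap. HOXC4 lies at chr12:54016638-54016937 on the plus strand, HOXA10 at chr7:27179812-27180111 and HOXA2 at chr7:27102634-27102933, both on the minus strand.
HOXC4: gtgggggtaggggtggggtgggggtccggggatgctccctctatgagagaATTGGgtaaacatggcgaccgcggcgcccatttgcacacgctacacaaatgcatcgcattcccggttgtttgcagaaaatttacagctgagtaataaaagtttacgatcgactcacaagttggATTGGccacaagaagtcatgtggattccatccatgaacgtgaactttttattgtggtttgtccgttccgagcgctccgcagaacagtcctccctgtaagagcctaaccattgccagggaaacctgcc
HOXA10: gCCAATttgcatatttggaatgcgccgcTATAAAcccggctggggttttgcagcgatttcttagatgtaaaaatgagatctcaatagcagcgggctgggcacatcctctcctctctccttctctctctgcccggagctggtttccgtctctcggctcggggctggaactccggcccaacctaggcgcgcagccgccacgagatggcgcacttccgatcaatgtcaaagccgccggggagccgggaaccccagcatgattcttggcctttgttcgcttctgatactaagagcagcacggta
HOXA2: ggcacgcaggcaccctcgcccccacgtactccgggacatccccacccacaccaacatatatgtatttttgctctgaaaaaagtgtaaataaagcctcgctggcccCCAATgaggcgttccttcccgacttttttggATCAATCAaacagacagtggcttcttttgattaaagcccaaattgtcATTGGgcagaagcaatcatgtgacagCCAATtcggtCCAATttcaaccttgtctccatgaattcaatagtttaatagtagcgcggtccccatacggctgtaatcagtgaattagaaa
HOXC4 holds 2 CCAAT matches, HOXA10 holds 1 CCAAT match and 1 TATA match, and HOXA2 holds 4 CCAAT matches and 1 HOX-PBX match. Among the 27 HOX windows 18 hold a CCAAT match, 5 a TATA match and 2 a HOX-PBX match on either strand, against 34.6%, 11.5% and 2.82% of all 35116 windows of the table. The half-site of the retinoic acid receptor (AGGTCA, or TGACCT) is in 0 of the 27 HOX windows and in 13.8% of all windows, which says only that these letters are not in those windows. Median GC content was 58.0% in the HOX windows and 58.7% in all windows.

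The clusters also hold microRNA genes that are known to act on HOX messages. The mature sequences of miR-196a-5p (gene MIR196A1, chr17:48632532-48632553, minus strand) and miR-196b-5p (chr7:27169528-27169549, minus strand) are given from RefSeq on GRCh38.p14 because MIR196A1 lies beside HOXB9 and differed between lines. Capitals mark the seed, bases 2 to 8, which is the same in both. Below them stand stretches of the 3′ UTRs of HOXB8 (chr17:48612770-48612791, minus strand), a well-studied miR-196a target, and of HOXB7 (chr17:48607614-48607635, minus strand), from GENCODE 29 on GRCh38, with capitals on the bases that face the seed.
hsa-miR-196a-5p: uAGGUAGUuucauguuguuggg
hsa-miR-196b-5p: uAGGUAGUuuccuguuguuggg
HOXB8 site: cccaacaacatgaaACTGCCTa
HOXB7 site: aacactgaaaaaatACTACCTa
Of the 22 bases of the HOXB8 site 21 can form standard base pairs with miR-196a, and the remaining 1 faces the seed. The HOXB7 site has a full seed match and 13 paired bases. A full seed match (ACTACCT in the message) was in the 3′ UTR of 8 of the 38 HOX genes (21.1%), against 8.33% of 19421 genes. HOXA7 had 4 such matches, HOXA9 and HOXC8 had 2 each, and HOXA5, HOXB1, HOXB6, HOXB7 and HOXB13 had 1 each. A match is a stretch of letters and does not show that the site is used.

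Each line used its own set of HOX genes. Taking FPKM of at least 1 in both libraries of a line as expressed, 12 of the 38 members were expressed in FTC-133, 10 in BHT-101 and 6 in 8505C, and 18 in at least 1 line. HOXA3 was the single member expressed in all 3 lines. FTC-133 alone expressed HOXA10, HOXA11, HOXC4 and HOXD8, BHT-101 alone expressed HOXA2, HOXB2 and HOXB5, and 8505C alone expressed HOXC9 and HOXC13. FTC-133 and BHT-101 shared HOXB3, HOXB4, HOXB6, HOXB7 and HOXB8, FTC-133 and 8505C shared HOXA5 and HOXC8, and BHT-101 and 8505C shared HOXB9. These sets depend on the level asked for: at FPKM of at least 2, FTC-133 expressed 5 members (HOXA5, HOXB4, HOXB7, HOXC4 and HOXD8), BHT-101 9 and 8505C 5. A low level in a whole culture cannot tell fewer expressing cells from less RNA per cell.

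**Figure D1:**
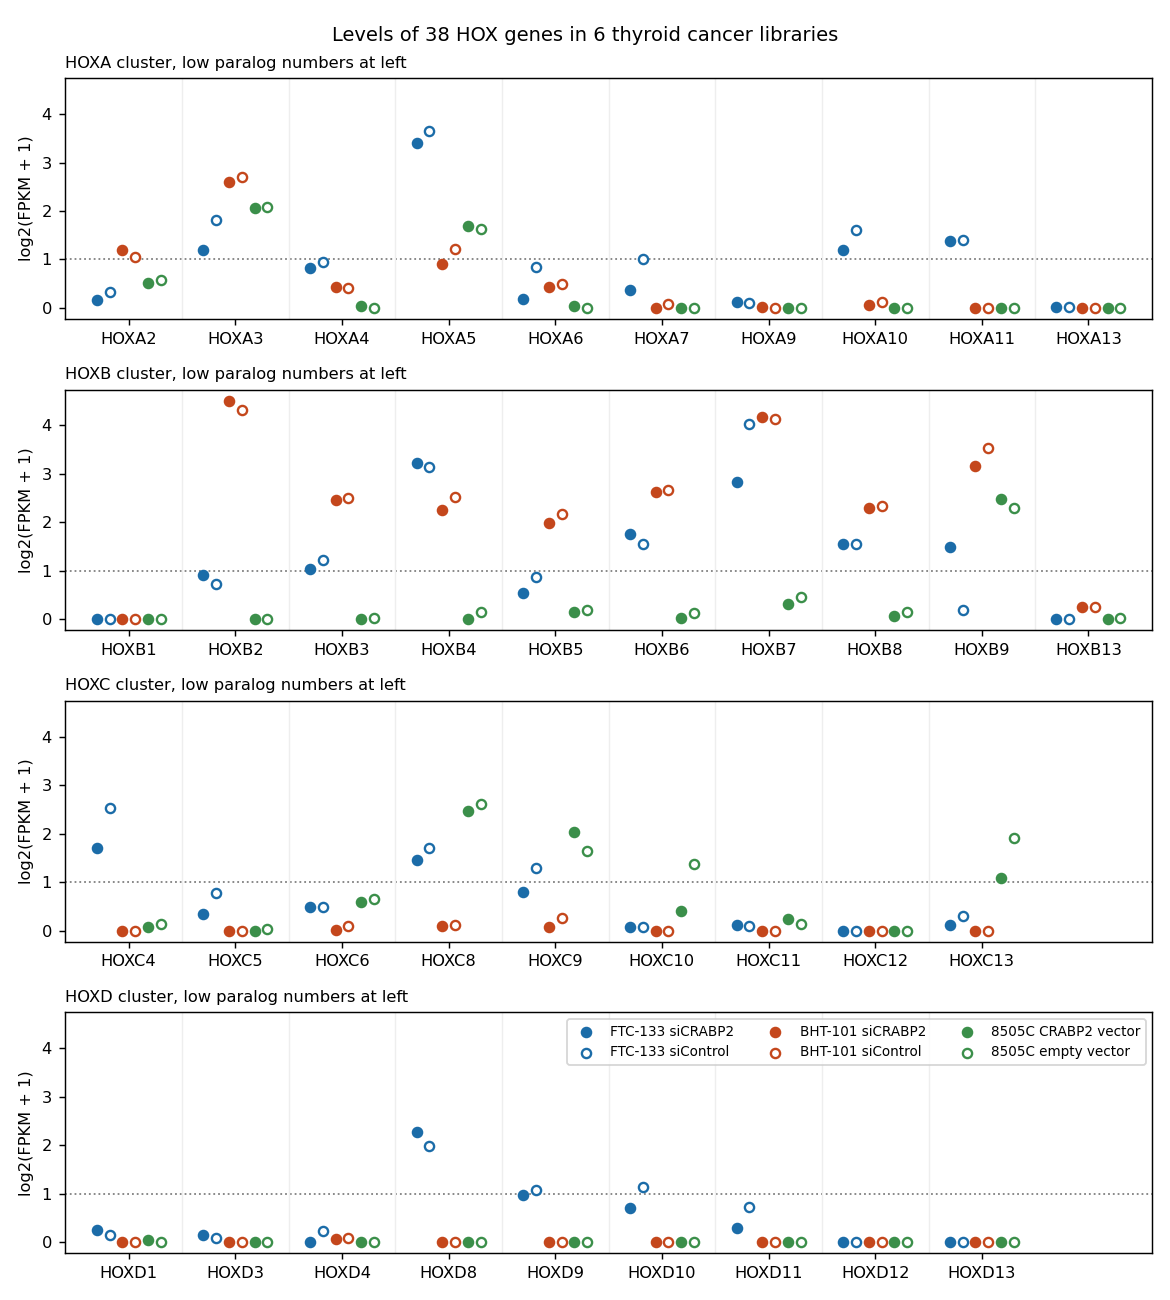
Levels of the 38 HOX genes as log2(FPKM + 1), 1 panel per cluster with genes in paralog order, 1 point per library (filled for siCRABP2 or CRABP2 vector, open for siControl or empty vector). The dotted line marks 1 FPKM; HOXB2 and HOXB7 in BHT-101 reach the highest values, 21.8 and 17.1 FPKM with siCRABP2, and HOXD8 stands above 1 FPKM in FTC-133 alone.

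By cluster, BHT-101 was a HOXB line. Its HOXB genes made up 89.2% of the summed HOX FPKM with siCRABP2 and 88.2% with siControl, and its HOXC and HOXD genes together less than 1 FPKM in either library. FTC-133 spread its HOX levels over all 4 clusters. With siCRABP2 the shares were 46.2% HOXB, 30.6% HOXA, 11.9% HOXD and 11.2% HOXC, and with siControl they were 44.7% HOXB, 31.1% HOXA, 9.27% HOXD and 14.9% HOXC. In 8505C the HOXC genes led, with 47.4% in the CRABP2 vector library and 53.8% in the empty vector library, ahead of HOXA (28.4% and 25.3%) and HOXB (24.1% and 20.9%). The summed HOX level was 49.7 and 67.1 FPKM in the siCRABP2 and siControl libraries of FTC-133, 75.6 and 78.0 FPKM in those of BHT-101, and 20.7 and 23.1 FPKM in the CRABP2 vector and empty vector libraries of 8505C.

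**Figure D2:**
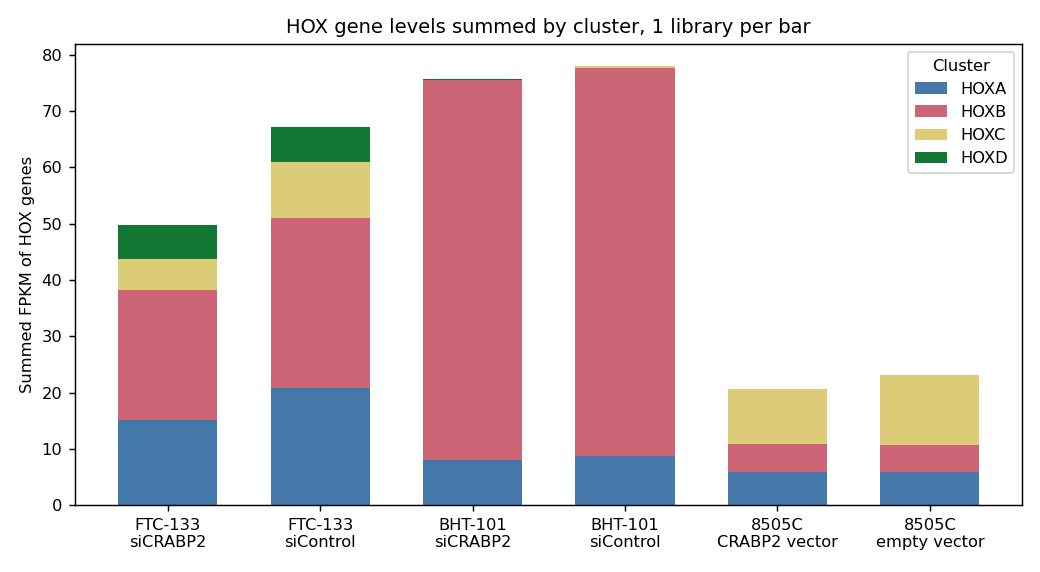
Summed FPKM of the HOX genes in each of the 6 libraries, stacked by cluster. BHT-101 is nearly all HOXB, 8505C has the lowest sums (20.7 and 23.1 FPKM) with HOXC the largest part, and HOXD is visible in FTC-133 alone.

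The lines also differed in position along the clusters. Paralogs 1 to 3 (anterior) held 43.3% and 38.9% of the summed HOX FPKM in the siCRABP2 and siControl libraries of BHT-101, against 7.33% and 7.34% in FTC-133. FTC-133 was central: paralogs 4 to 8 held 77.5% with siCRABP2 and 79.7% with siControl. 8505C was the most posterior by this measure, with 45.0% and 45.8% on paralogs 9 to 13 in its CRABP2 vector and empty vector libraries. The highest genes in these sums were HOXA5, HOXB4 and HOXB7 in FTC-133, HOXB2 and HOXB7 in BHT-101 and HOXB9, HOXC8 and HOXA3 in 8505C.

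Differences between lines were tested with limma on log2(FPKM + 1) across all 13736 genes with FPKM of at least 1 in 2 or more libraries. Both libraries of a line were taken as its replicates, with a term for the CRABP2 arm; they differ in treatment, so their spread is not that of repeated cultures. Of the 38 members 18 entered the test, and all 18 had an adjusted p under 0.05 in the F-test over lines, where 76.8% of all genes tested did. A member expressed in 1 line enters this test through that line and could hardly fail to differ, so the 18 of 18 is no result about HOX genes. The same holds for the contrasts of such a member with the other lines, whose p-values below are given for description and are no support for the difference. Without the filter, 34 members were tested and 23 were called, where 30.7% of all 33848 genes were; HOXA4, HOXB13, HOXC6, HOXD9 and HOXD10 were the added ones. Between FTC-133 and BHT-101, 8 members were higher and 8 lower in FTC-133 (28.3% and 17.7% of all genes tested). Without the siCRABP2 library of BHT-101 the total of 16 became 10, and without its siControl library 9. Between FTC-133 and 8505C, 12 were higher and 4 lower in FTC-133 (34.3% and 23.7% of all genes), and between BHT-101 and 8505C, 8 were higher and 4 lower in BHT-101 (31.2% and 29.2%).

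**Figure D3:**
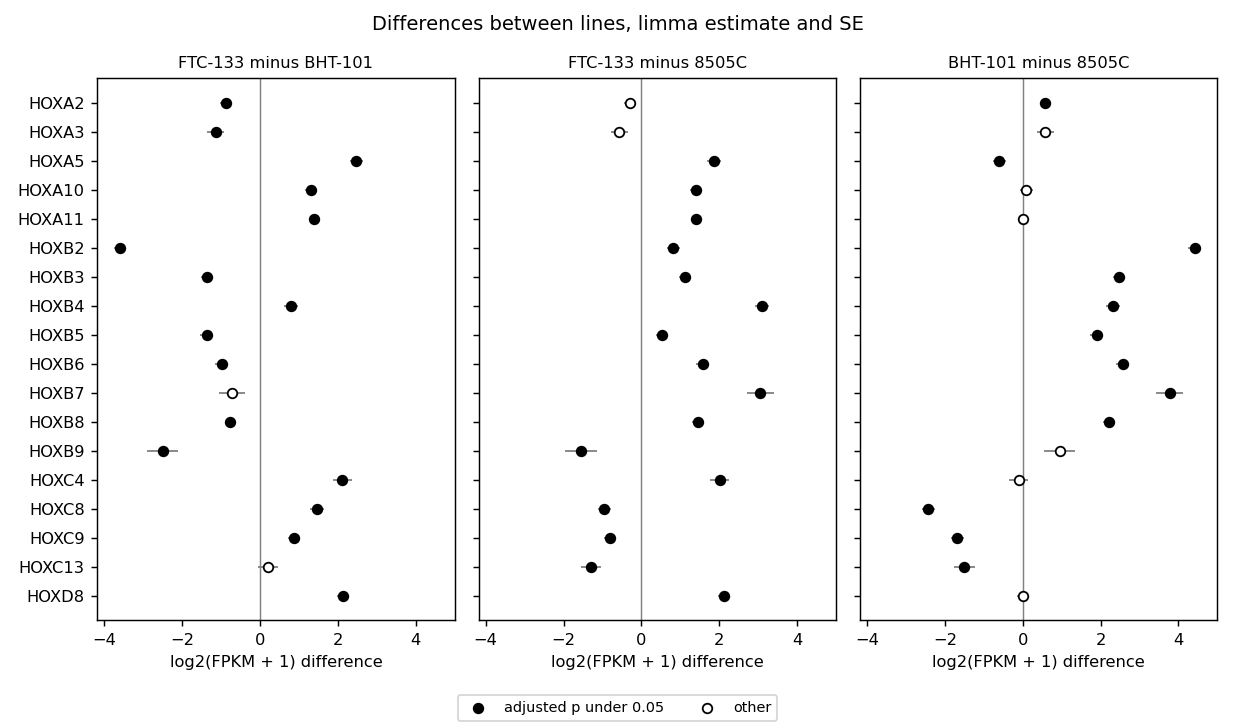
Differences in log2(FPKM + 1) between lines for the 18 HOX genes tested, limma estimate with its standard error; filled points have an adjusted p under 0.05 over all 13736 genes. HOXB2 is at -3.60 for FTC-133 minus BHT-101 and 4.42 for BHT-101 minus 8505C, and HOXC8 and HOXC9 are below 0 in BHT-101 minus 8505C.

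In the HOXA cluster, HOXA2, which gives the second branchial arch its identity, was at 0.126 and 0.259 FPKM in FTC-133 with siCRABP2 and siControl, at 1.3 and 1.06 FPKM in BHT-101, and at 0.427 and 0.488 FPKM in 8505C with CRABP2 vector and empty vector. It was lower in FTC-133 than in BHT-101 by 0.87 on the log2 scale (SE 0.15, limma adjusted p = 0.00507). HOXA3 had 1.3 and 2.52 FPKM in FTC-133, 5.05 and 5.52 FPKM in BHT-101 and 3.17 and 3.25 FPKM in 8505C, treated library first in each. Its FTC-133 libraries lay below those of both other lines, and FTC-133 minus BHT-101 was -1.14 (SE 0.21, limma adjusted p = 0.00676); without the siCRABP2 library of BHT-101 this was -1.05 and no longer passed. FTC-133 minus 8505C was -0.57 for HOXA3 (SE 0.21, limma adjusted p = 0.0609), and without the siControl library of FTC-133 it was -0.85 and passed.

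HOXA5, needed for lung and thyroid formation in the mouse, was the highest HOXA gene of FTC-133. It had 9.62 and 11.6 FPKM there, 0.885 and 1.31 FPKM in BHT-101 and 2.24 and 2.11 FPKM in 8505C, treated library first in each line. FTC-133 exceeded BHT-101 by 2.47 (SE 0.17, limma adjusted p = 0.000176) and 8505C by 1.87 (SE 0.17, limma adjusted p = 0.000375). BHT-101 minus 8505C was -0.61 (SE 0.17, limma adjusted p = 0.0221) and was lost without any 1 of 3 libraries, at -0.53 without BHT-101 siCRABP2, -0.68 without BHT-101 siControl and -0.50 without 8505C empty vector. The posterior genes HOXA10 and HOXA11, which pattern the uterus and the limb, were found at 1 FPKM or more in FTC-133 only. HOXA10 had 1.29 and 2.05 FPKM with siCRABP2 and siControl there and 0.0481 and 0.0865 FPKM in BHT-101. HOXA11 had 1.61 and 1.66 FPKM in FTC-133. Both were listed at 0 in 8505C, and HOXA11 also in BHT-101, where 0 reads allow up to 3. HOXA7 was at 0.290 FPKM in FTC-133 with siCRABP2, against 1.02 FPKM with siControl. It was at 0 and 0.0593 FPKM in BHT-101 and listed at 0 in 8505C. Of the exon bases of HOXA7, 62.5% also belong to the antisense RNA HOXA-AS3, and of HOXA11 31.1% to HOXA11-AS; no source used here says whether counting was stranded, and the reads of such partners cannot be told apart.

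The HOXB cluster carried most of the HOX levels of BHT-101. HOXB2, which acts in the hindbrain, had 0.882 and 0.655 FPKM in FTC-133 with siCRABP2 and siControl and 21.8 and 19.1 FPKM in BHT-101, and was listed at 0 in both 8505C libraries. FTC-133 minus BHT-101 was -3.60 (SE 0.16, limma adjusted p = 5.24e-05), and BHT-101 minus 8505C was 4.42 (SE 0.16, limma adjusted p = 3.09e-05). HOXB3 had 1.04 and 1.33 FPKM in FTC-133, 4.53 and 4.69 FPKM in BHT-101 and 0 and 0.0235 FPKM in 8505C. HOXB5 had 0.451 and 0.829 FPKM in FTC-133, 2.96 and 3.50 FPKM in BHT-101 and 0.111 and 0.15 FPKM in 8505C. HOXB6 had 2.40 and 1.92 FPKM in FTC-133, 5.17 and 5.34 FPKM in BHT-101 and 0.0174 and 0.101 FPKM in 8505C. These 3 genes shared the order BHT-101, FTC-133, 8505C with no overlap between lines. They are not fully separate readings. HOXB3 shares 7.94% of its exon bases with HOXB4 and HOXB6 on the same strand, and HOXB6 shares 16.6% with HOXB3. HOXB4 shares 17.1% with HOXB3 and other genes, and HOXB5 shares 0% on that strand. How reads in such bases were counted is not known here. FTC-133 minus BHT-101 was -1.36, -1.37 and -0.99 for HOXB3, HOXB5 and HOXB6 (SE at most 0.163, limma adjusted p at most 0.00436). The HOXB6 difference was -0.89 without the siControl library of BHT-101 and then missed the threshold. FTC-133 minus 8505C for HOXB5 was 0.53 (SE 0.16, limma adjusted p = 0.033), and it missed the threshold without FTC-133 siControl (0.39), 8505C CRABP2 vector (0.37) or 8505C empty vector (0.68).

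HOXB4, known for expanding blood stem cells, ran the other way between FTC-133 and BHT-101. It had 8.30 and 7.83 FPKM in FTC-133, 3.80 and 4.73 FPKM in BHT-101 and 0 and 0.109 FPKM in 8505C. FTC-133 minus BHT-101 was 0.79 (SE 0.18, limma adjusted p = 0.0154), and without BHT-101 siCRABP2 (0.60) or BHT-101 siControl (0.97) it missed the threshold. HOXB8, which marks and shapes myeloid precursors in the mouse, had 1.94 FPKM in both FTC-133 libraries, 3.93 and 4.03 FPKM in BHT-101 and 0.0442 and 0.107 FPKM in 8505C. Its FTC-133 minus BHT-101 difference was -0.76 (SE 0.15, limma adjusted p = 0.00936), and -0.79 and -0.72 without BHT-101 siCRABP2 and BHT-101 siControl, neither of which passed.

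HOXB7 and HOXB9 stood apart from their neighbours. HOXB7 had 6.16 and 15.4 FPKM in FTC-133 with siCRABP2 and siControl, 17.1 and 16.6 FPKM in BHT-101 and 0.237 and 0.372 FPKM in 8505C. The FTC-133 siCRABP2 library was below the BHT-101 libraries and the siControl library was near them; FTC-133 minus BHT-101 was -0.72 (SE 0.34, limma adjusted p = 0.133), and without the siControl library of FTC-133 it was -1.36 and passed. HOXB9, one of the 3 ninth-group paralogs that act in the mouse mammary gland, was the single HOXB gene expressed in 8505C. It had 1.81 and 0.140 FPKM in FTC-133 with siCRABP2 and siControl, 7.91 and 10.6 FPKM in BHT-101, and 4.59 and 3.94 FPKM in 8505C with CRABP2 vector and empty vector. FTC-133 minus BHT-101 was -2.5 (SE 0.40, limma adjusted p = 0.00408), and FTC-133 minus 8505C was -1.55 (SE 0.40, limma adjusted p = 0.018), with -1.24 and no call without the CRABP2 vector library. BHT-101 minus 8505C was 0.95 (SE 0.40, limma adjusted p = 0.0867); it passed without BHT-101 siCRABP2 (1.42) and, at the same estimate, without either FTC-133 library.

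The HOXC cluster separated 8505C from BHT-101. HOXC8, which acts in spinal motor neurons of the forelimb level, had 1.73 and 2.28 FPKM in FTC-133 with siCRABP2 and siControl, 0.0741 and 0.0888 FPKM in BHT-101, and 4.52 and 5.11 FPKM in 8505C with CRABP2 vector and empty vector. BHT-101 minus 8505C was -2.42 (SE 0.17, limma adjusted p = 0.000173). HOXC9, which sets the thoracic motor neuron identity next to it, had 0.729 and 1.45 FPKM in FTC-133, 0.0537 and 0.193 FPKM in BHT-101 and 3.13 and 2.13 FPKM in 8505C. Both genes were highest in 8505C and lowest in BHT-101, without overlap. The FTC-133 minus BHT-101 difference of HOXC9 was 0.88 (SE 0.16, limma adjusted p = 0.00625), and 0.74 with no call without BHT-101 siControl.

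HOXC13, which drives hair and nail keratin genes, had 0.078 and 0.239 FPKM in FTC-133, was listed at 0 in BHT-101, and had 1.11 and 2.79 FPKM in 8505C with CRABP2 vector and empty vector. BHT-101 minus 8505C was -1.5 (SE 0.26, limma adjusted p = 0.00363). HOXC10 was at 0.325 FPKM in 8505C with CRABP2 vector, against 1.61 FPKM with empty vector, the single library in which it passed 1 FPKM. In FTC-133 HOXC10 had 0.0465 and 0.051 FPKM with siCRABP2 and siControl, and in BHT-101 it was listed at 0. HOXC4 had 2.25 and 4.79 FPKM in FTC-133 with siCRABP2 and siControl, 0 reads in BHT-101 and 0.0491 and 0.0949 FPKM in 8505C. FTC-133 exceeded 8505C by 2.02 (SE 0.24, limma adjusted p = 0.00102). In FTC-133 the listed levels of the genes between HOXC4 and HOXC8 were lower. HOXC6 was at 0.404 and 0.396 FPKM and HOXC5 at 0.265 and 0.714 FPKM. Of the exon bases of HOXC4, HOXC5 and HOXC6, 17.8%, 59.9% and 15.7% lie in other genes of the same strand. How reads in those bases were assigned is not known here.

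In the HOXD cluster, FTC-133 was the single line with a gene at 1 FPKM or more. In the other lines the 9 HOXD genes summed to at most 0.063 FPKM, from 1 and 2 reads of HOXD4 in BHT-101 with siCRABP2 and siControl and 1 read of HOXD1 in 8505C with CRABP2 vector. HOXD8 had 3.79 and 2.94 FPKM with siCRABP2 and siControl there, from 271 and 192 reads, and 0 reads in each of the other 4 libraries. The difference was 2.12 against either line (SE 0.15, limma adjusted p = 0.0002 for BHT-101 and 0.00019 for 8505C). HOXD8 entered the test through FTC-133 alone, so these p-values are no independent support. HOXD9 had 0.963 and 1.10 FPKM in FTC-133, and HOXD10, which acts in hindlimb motor neurons, had 0.629 and 1.2 FPKM; both had 0 reads elsewhere. HOXD11, a forearm gene next to HOXD10 that shares 21.4% of its exon bases with it, had 0.227 and 0.649 FPKM in FTC-133. HOXD3 and HOXD4 were low, at most 0.104 and 0.177 FPKM. Of their exon bases, 62.2% and 80.5% also belong to AC009336.2 on the same strand. How reads in shared bases were counted is not known here, so these low levels are uncertain. The genes at the far end, HOXD12 and HOXD13, had 0 reads in all 6 libraries, as did HOXB1 and HOXC12. In all, 12 members, among them HOXA9 and the prostate gene HOXB13, were above 0 somewhere and under 1 FPKM everywhere, with HOXA4 the highest at 0.922 FPKM.

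Within a line, 1 library stands against 1, so no difference has a replicate check. A gene was measured in a line if it had at least 1 FPKM in 1 or both libraries, and called by size at a difference of at least 1 on log2(FPKM + 1). The read ratio of the 2 libraries, scaled for depth, is given with its 95% exact (Clopper-Pearson) interval, which covers counting error only and compares libraries, not conditions. That scale has no pseudocount, so it is larger than the difference on log2(FPKM + 1) for low genes.

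In FTC-133, siCRABP2 went with more HOXB9 and less HOXB7 message. Of the 17 HOX genes measured, 1 was higher by the size rule (HOXB9) and 1 lower (HOXB7), where 2.36% and 2.35% of all 12832 measured genes were. HOXB9 had 127 reads with siCRABP2 and 9 with siControl, a difference of 1.3 on log2(FPKM + 1) and a log2 read ratio of 3.69 (interval 2.72 to 4.85). HOXB7 had 256 reads with siCRABP2 and 584 with siControl, a difference of -1.19 and a log2 read ratio of -1.32 (interval -1.54 to -1.11). HOXB8, whose number falls between theirs, had 108 and 99 reads, with a log2 read ratio of -0.01 (interval -0.41 to 0.40). Over the 17, 13 differences were below 0 and the median was -0.25, while 53.9% of all measured genes were below 0 with a median of -0.04.

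**Figure D4:**
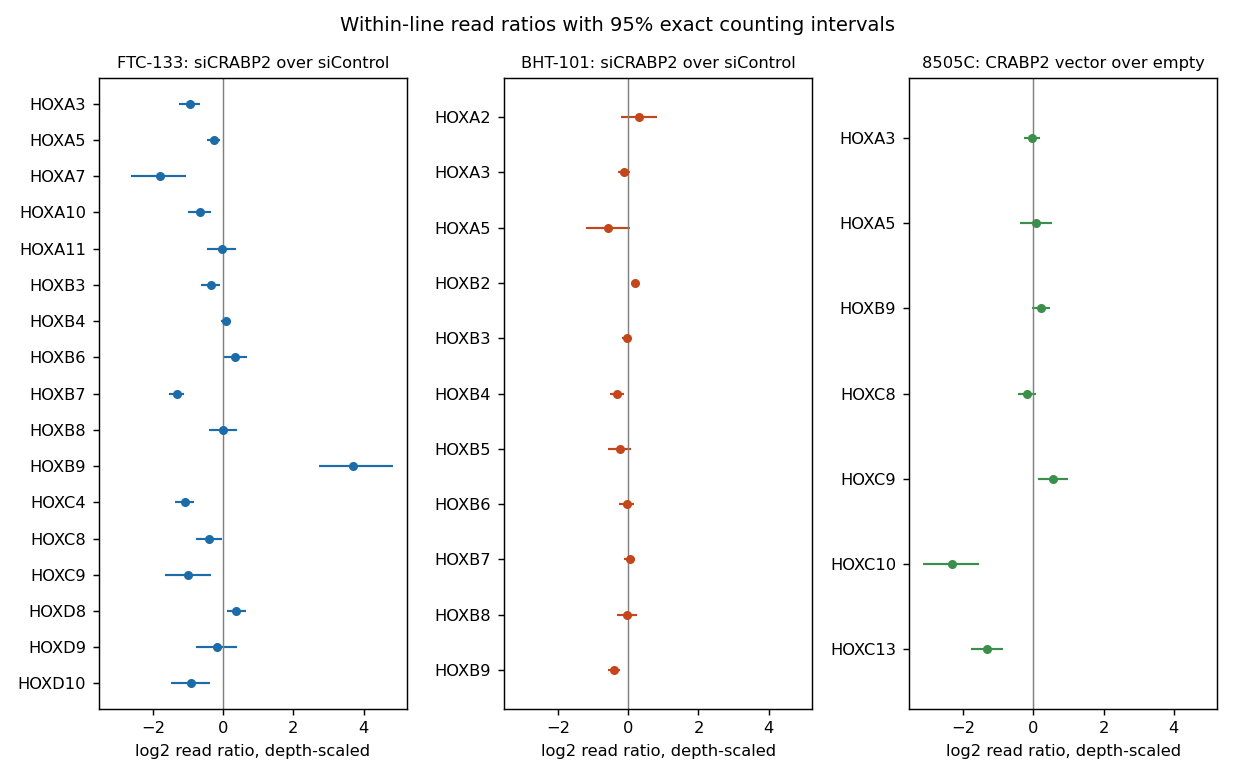
Depth-scaled log2 read ratio of the 2 libraries of each line for the HOX genes measured there, with 95% exact counting intervals (counting error only). HOXB9 at 3.69 stands far to the right and HOXB7, HOXC4 and HOXA7 to the left in FTC-133, BHT-101 ratios lie near 0, and HOXC10 and HOXC13 are to the left in 8505C.

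Next in size in FTC-133 came HOXC4, with 169 reads with siCRABP2 and 329 with siControl, a difference of -0.83 and a log2 read ratio of -1.09 (interval -1.37 to -0.82). HOXC5, which shares the promoter window printed above, had 13 and 32 reads and a ratio of -1.43 (interval -2.48 to -0.46), although it did not reach 1 FPKM and 59.9% of its exon bases lie in other genes of the same strand. HOXA7 had 19 and 61 reads, a difference of -0.65 and a ratio of -1.81 (interval -2.64 to -1.05). HOXA6, its neighbour, had 5 and 25 reads and a ratio of -2.45 (interval -4.20 to -1.04); 39.3% of its exon bases are shared with HOXA-AS3 on the other strand. With a pseudocount of 0.1 in place of 1, HOXC4 (-1.06) and HOXA7 (-1.52) also passed the size rule, which made 4 of 17 where 9.96% of all genes passed in either direction.

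Several others had fewer reads with siCRABP2 in FTC-133. HOXA3 had 152 and 269 reads with siCRABP2 and siControl, a ratio of -0.95 (interval -1.25 to -0.66). HOXA10 had 130 and 189 reads (ratio -0.67, interval -1.0 to -0.34), and HOXC9 33 and 60 (ratio -0.99, interval -1.65 to -0.36). In the HOXD cluster the neighbours differed: HOXD8 had a ratio of 0.37 (interval 0.09 to 0.64), HOXD9 of -0.19 (interval -0.78 to 0.41), HOXD10 of -0.93 (interval -1.49 to -0.39) and HOXD11, from 13 and 34 reads, of -1.52 (interval -2.56 to -0.56). HOXB4 was at 0.09 (interval -0.05 to 0.23) and HOXB6 at 0.32 (interval -0.02 to 0.67). Marker levels also differed between these libraries: the 9 thyroid markers summed to 25.9 FPKM with siCRABP2 and 35.7 FPKM with siControl, with 2 and 1 of them at 0, and the 5 fibroblast and muscle markers to 145 and 162 FPKM. Their part in the HOX differences was not tested.

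In BHT-101 the HOX genes differed little between siCRABP2 and siControl. None of the 11 measured members passed the size rule in either direction, where 0.589% of all 12055 measured genes were higher and 0.539% lower. HOXB9 had 457 reads with siCRABP2 and 763 with siControl, a difference of -0.37 and a log2 read ratio of -0.42 (interval -0.59 to -0.25), opposite in sign to FTC-133. HOXB4 had 340 and 530 reads (ratio -0.32, interval -0.52 to -0.12), and HOXB2 1138 and 1247 (ratio 0.19, interval 0.07 to 0.31). HOXB7 was at 0.04 (interval -0.12 to 0.20). HOXA5 had 34 and 63 reads (ratio -0.57, interval -1.21 to 0.06). Of the 11 members 8 were below 0 with a median of -0.04, against 46.7% of all measured genes and a median of 0.01.

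In 8505C, the CRABP2 vector library held fewer reads of HOXC10 and HOXC13. HOXC10 had 17 reads with CRABP2 vector and 87 with empty vector, a difference of -0.98 and a log2 read ratio of -2.31 (interval -3.15 to -1.55). HOXC13 had 58 and 150 reads, a difference of -0.84 and a ratio of -1.32 (interval -1.78 to -0.88). Between them on the chromosome, HOXC11 had 13 and 8 reads (ratio 0.75, interval -0.63 to 2.23), and next to HOXC10, HOXC9 had 115 and 81 reads (ratio 0.55, interval 0.13 to 0.98). None of the 7 measured members passed the size rule, where 1.85% of all 11731 measured genes were higher and 1.86% lower. With a pseudocount of 0.5 HOXC10 (-1.35) and HOXC13 (-1.03) both passed, where 5.43% of all genes did in either direction, and with 0.1 the same pair passed, where 7.63% did. HOXB9 (262 and 233 reads, ratio 0.22, interval -0.04 to 0.48), HOXC8 (ratio -0.18) and HOXA3 (ratio -0.04) had intervals that include 0. HOXB4 had 0 reads with CRABP2 vector and 10 with empty vector. Of the 7 members 4 were below 0 with a median of -0.03, against 47.2% of all measured genes and a median of 0.02. Marker levels differed between these libraries as well: the 5 epithelial markers summed to 235 FPKM with CRABP2 vector and 148 FPKM with empty vector, with none at 0 in either. The 9 thyroid markers summed to 13.4 FPKM with CRABP2 vector and 17.1 FPKM with empty vector, with 3 at 0 in each. Their part in the HOX differences of 8505C was not tested.

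With the lines as replicates, no member was called for CRABP2. In the limma fit of the 4 siRNA libraries with line as a block, 0 of 16 members and 0 of 12953 genes passed (0% in either direction), while 539 genes and 0 members had an unadjusted p under 0.05. The smallest adjusted p was 0.25 over all genes and 0.869 among members. Setting siCRABP2 and empty vector libraries against siControl and CRABP2 vector libraries over all 3 lines gave 0 of 18 members and 0 of 13736 genes, with 394 genes and 1 member, HOXC9 (-0.36, SE 0.13, limma adjusted p = 0.999), at an unadjusted p under 0.05. These fits had 1 and 2 residual degrees of freedom. Whether the CRABP2 effect on a HOX gene differed between lines was not tested, since each line has 1 library per treatment.

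Noncoding RNAs of the clusters also differed in level between lines. Of 18 such RNAs on the list, 6 entered the line test and 6 passed, where 76.8% of all genes tested did. As with the HOX genes, an RNA high in 1 line entered through that line and could hardly fail to differ, so the 6 of 6 is no result about them. HOTAIRM1, at the low-numbered end of HOXA, had 15.3 and 10.2 FPKM in FTC-133 with siCRABP2 and siControl, 4.31 and 4.49 FPKM in BHT-101 and 0.0605 and 0.0293 FPKM in 8505C. HAGLR and HAGLROS, which lie in the HOXD cluster, were at 2.92 and 2.92 FPKM and at 10.1 and 6.18 FPKM in FTC-133, and at most 0.24 FPKM and 0 in the other lines, the same line that expressed HOXD8. HOXB-AS1 was at 0.472 and 0.284 FPKM in FTC-133, 3.22 and 2.94 FPKM in BHT-101 and 0 in 8505C, in the order of HOXB2. HOXA-AS2 was highest in BHT-101 (2.08 and 1.94 FPKM), as was HOXA3. On the other strand, 15.4% of the HOXA3 exon bases are shared with HOXA-AS2 and HOXA-AS3, and 3.72% of those of HOXB2 with HOXB-AS1. Whether counting was stranded is not known here, so shared reads may add to these matching orders.

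The HOXB9 end of the cluster shared the order of HOXB9 across lines. HOXB-AS4 was listed at 0 in both FTC-133 libraries, and at 2.41 and 3.21 FPKM in BHT-101 with siCRABP2 and siControl and 1.83 and 1.44 FPKM in 8505C with CRABP2 vector and empty vector. The microRNA gene MIR196A1 had 0 reads in FTC-133, 8 and 17 in BHT-101 and 3 and 4 in 8505C, on the gene and not on the mature microRNA, whose level was not measured. In FTC-133, where HOXB9 had 127 and 9 reads, neither of these neighbours was seen in either library. At the other end of the cluster, SKAP1, the neighbour on the HOXB1 side, was at 1.25 and 0.274 FPKM in FTC-133 with siCRABP2 and siControl, a difference of 0.82, at 2.96 and 3.46 FPKM in BHT-101 and at most 0.0856 FPKM in 8505C.

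Among the cofactors that bind DNA beside HOX proteins, 3 of the 6 tested passed the line test (PBX3, MEIS3 and PKNOX1). PBX3 was at 24.7 and 34.1 FPKM in FTC-133, 3.53 and 2.92 FPKM in BHT-101 and 4.29 and 2.54 FPKM in 8505C. Within FTC-133 all 5 measured cofactors were lower with siCRABP2 (median difference -0.53), where 53.9% of all measured genes were below 0. MEIS2 was at 2.02 and 4.87 FPKM (-0.96) with siCRABP2 and siControl, and none passed the size rule. Cofactors under 1 FPKM there were mixed. MEIS3 had 92 and 47 reads (log2 read ratio 0.84, interval 0.32 to 1.38) and MEIS1 94 and 199 (ratio -1.21, interval -1.58 to -0.85). PBX4 had a ratio of -0.03 (interval -0.59 to 0.54), and PKNOX2 had 4 and 0 reads. In BHT-101 5 of 6 measured cofactors were above 0 with a median of 0.11, against 53.3% of all measured genes, and in 8505C 5 of 6 with a median of 0.03, against 52.8%.

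Polycomb genes keep silent HOX genes off, and 11 of 16 passed the line test. EZH2, the H3K27 methyltransferase, was at 14.7 and 19.4 FPKM in FTC-133, 18.0 and 18.8 FPKM in BHT-101 and 2.49 and 1.87 FPKM in 8505C. CBX2 was at 1.17 FPKM in both FTC-133 libraries, 5.13 and 5.56 FPKM in BHT-101 and 0.367 and 0.401 FPKM in 8505C. Of the Trithorax and H3K27 demethylase genes, which oppose Polycomb, 7 of 12 passed, and of the retinoic acid receptor list 4 of 7 did (RARB, RARG, RXRA and NCOR1). Of the list of other HOX regulators, CTCF, GMNN and YY1 passed. The shares past the line test stand beside the 76.8% of all genes tested, and none of these genes passed the size rule within a line. Genes next to the clusters passed in 6 of 7 cases.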

How the data were processed

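RNA sequencing of 6 libraries (1 per group, 3 lines) was analysed from a table of FPKM values deposited by the authors, with 58884 genes. FastQC, Trimmomatic 0.38, featureCounts 2.0.0 and GRCh38 are named per the submitters' processing notes. Which aligner, counting annotation and strand setting were used was not given in the sources used here. Groups came from the sample titles. GENCODE release 29 named 58611 genes and gave exon lengths and positions on GRCh38, and may not be the release the authors used.

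Reads were recovered as FPKM times exon length times the total of reads. The release 29 length gave whole reads (tolerance 0.001 reads) for 75.2% of the 33700 named genes above 0 and for 23 of the 38 members, and another length found by search did for the other 15. A count test was not run. Intervals (95%) and the limit of 3 reads behind a count of 0 cover counting error only, since reads are not independent molecules.

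Tests used limma 3.58.1 in R 4.3.3 on log2(FPKM + 1), which understates changes of low genes, with a variance trend, for genes with FPKM of at least 1 in 2 or more libraries, and Benjamini-Hochberg adjustment over all genes tested, called at 0.05. The fit of 6 libraries had terms for line and CRABP2 arm, and that of 4 siRNA libraries for line and siRNA. Libraries of a line are paired because they come from the same cell line. The script was tested on simulated data. A p-value weighs a difference against the spread between these libraries, which limma moderates over all genes tested. Symbols that occur more than once were taken from the protein-coding gene. The members and the lists of other genes were chosen with earlier results of these data known. All members were to be reported, those reaching 1 FPKM in any library with every value, and of the other lists those past the line test or the size rule with values, otherwise up to 4 with the largest differences. Of the other lists, only some genes past the line test are given with values here. Alternatives were other pseudocounts, filters and scalings, no arm or line term, other expression levels and leaving out each library.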

Additional observations from a re-analysis of the deposited data

Results flagged for a closer look

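HOXB9 differed in opposite directions between siCRABP2 and siControl in the 2 lines with knockdown. The log2 read ratio was 3.69 in FTC-133, from 127 and 9 reads, and -0.416 in BHT-101, from 457 and 763 reads. With 1 library per treatment in each line, the difference between the lines was not tested. In GENCODE 29 the HOXB9 exons share no bases with exons of other genes. HOXB9 does lie within the span of the HOXB7 gene, on the same strand. HOXB7 had ratios of -1.32 in FTC-133 and 0.04 in BHT-101. The cause was not tested.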

How the results depend on the processing

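With FPKM of at least 1 asked in 3 or more libraries, 10 members were tested and 10 called between lines. Of these, 9 were called for FTC-133 minus BHT-101 and 9 for FTC-133 minus 8505C, since fewer members entered. In the main test 76.8% of all genes tested were called between lines. The counts of members called between lines in this paragraph are therefore no result about HOX genes. Leaving out 1 library gave 14 to 17 members called between lines, 9 to 16 for FTC-133 minus BHT-101, 12 to 14 for FTC-133 minus 8505C and 8 to 14 for BHT-101 minus 8505C. The size rule called 4 members in FTC-133 at a pseudocount of 0.1, and 2 in 8505C at 0.1 and 2 at 0.5, because a smaller pseudocount widens the differences of low genes. At FPKM of at least 2, 5 members were expressed in FTC-133. The other 84 alternative values for these counts stayed within 1.5 times, and no difference reversed. Of the members' contrasts under the alternatives 593 kept their side of the threshold, 25 lost it and 12 gained it. Over all genes, without the siCRABP2 and the siControl library of BHT-101, 2797 and 2603 genes were called for FTC-133 minus BHT-101, against 6324 with all libraries, and 4594 and 4583 for BHT-101 minus 8505C, against 8288. The size rule at a pseudocount of 0.1 called 1278 genes in FTC-133, 302 in BHT-101 and 895 in 8505C, against 605, 136 and 435. Without the line as a replicate block, 0 members were called for the arm and 0 for the knockdown. Leaving out a library of the 4-library knockdown fit leaves no residual degrees of freedom and was not run. Depth limits members under about 30 reads, such as HOXA6 in FTC-133 (5 and 25 reads).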
